A study of Homo sapiens with 8 samples.

Results

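This account follows 10 genes of the tumor necrosis factor (TNF) receptor system in human neuroblastoma (NB) cells. They are the receptor genes TNFRSF9, TNFRSF1A, TNFRSF1B, TNFRSF10B, TNFRSF12A, FAS and LTBR, the adaptor gene TRAF1, and the cellular inhibitor of apoptosis protein (IAP) genes BIRC2 and BIRC3. They were taken from the 60676 Ensembl gene identifiers of the count table by symbol. The list was selected on earlier results from these same libraries, so levels and fold changes of the 10 genes are given as a description, with no p-value. All 10 had enough reads to enter the fit, in which 16680 genes were tested.

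The cells are IGR-N91, a human NB line, grown as aggregates in hanging drops (drops of medium on the lid of a dish, in which cells settle into a clump). Control aggregates were kept in control medium. The others received medium conditioned by sympathetic ganglia of E8 chick embryos (E8-cSGcm, written E8-cGScm in some labels), by dorsal root ganglia of E8 chick embryos (E8-cDRGcm), or by sympathetic ganglia of E15.5 mouse embryos (E15.5-mSGcm, or E15.5-mGScm). Each of the 4 groups had 2 libraries, made by a stranded total RNA kit. All 8 libraries come from 1 line without any genetic change described in the labels, and p-values measure only the spread between these duplicates. The study's methods describe measurements on distinct samples and duplicates stored as aggregates before RNA extraction. Whether the duplicates came from separate culture days or batches of medium is not given in the sources used here, so part of their spread may be technical. The exposure lasted 20 h by the treatment protocol of the labels and 24 h by the description of the series.

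TNF family ligands act on receptors at the cell surface. Death receptors such as TNFR1, FAS and TRAIL-R2 hold a death domain in the cytoplasm and can lead to caspase activation, whereas TNFR2, 4-1BB, FN14 and the lymphotoxin beta receptor recruit TRAF adaptors. TRAF proteins bring in the ubiquitin ligases cIAP1 and cIAP2, encoded by BIRC2 and BIRC3, which restrain cell death at the receptor, sustain the canonical NF-kB pathway and hold the non-canonical pathway down. TNFRSF9, TRAF1 and BIRC3 are known as transcriptional targets of NF-kB, the dimeric factor that binds the kB motif.

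Of the 10 genes, TNFRSF9 and BIRC3 differed most between the media and hold a kB motif close upstream of their start. Their upstream stretches are shown for that reason. In the RefSeq promoter table (GRCh38.p14), the 250 bases before the annotated start lie at chr1:7940840-7941089 on the minus strand for TNFRSF9 and at chr11:102317234-102317483 on the plus strand for BIRC3. They are written from 5′ to 3′ in the direction of the gene, and capitals mark the letters of the kB consensus on either strand.
TNFRSF9: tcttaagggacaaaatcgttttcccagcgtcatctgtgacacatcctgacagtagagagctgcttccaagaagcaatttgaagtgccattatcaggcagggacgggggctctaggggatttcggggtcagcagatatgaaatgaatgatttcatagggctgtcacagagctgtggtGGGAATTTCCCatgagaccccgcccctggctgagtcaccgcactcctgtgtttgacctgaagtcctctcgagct
BIRC3: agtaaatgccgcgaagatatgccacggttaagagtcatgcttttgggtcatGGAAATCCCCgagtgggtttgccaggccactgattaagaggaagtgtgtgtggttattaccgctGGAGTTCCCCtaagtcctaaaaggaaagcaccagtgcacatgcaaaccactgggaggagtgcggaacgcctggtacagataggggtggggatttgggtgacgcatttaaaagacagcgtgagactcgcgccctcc

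The capitals in TNFRSF9 hold 2 overlapping matches, 1 on each strand, which begin 74 and 73 bases before the start. Those in BIRC3 are 2 separate matches on the opposite strand, 199 and 135 bases before the start. Of the 10 genes, 8 had entries in the table. A match was also found in 1 of 3 promoters of FAS (157 bases before the start, readable on both strands), and none in the promoters of TNFRSF1A, TNFRSF1B, LTBR, TRAF1 (3 entries) and BIRC2 (2 entries). TNFRSF12A had no entry, and TNFRSF10B was not searched. Among all 35116 promoters of the same length, 3498 (9.96%) held at least 1 match, so the motif is a frequent string, and a match in this window is a description of letters and not a binding site.

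Total counts ranged from 7930765 to 15060744 per library. Both E15.5-mSGcm libraries (at most 8937397) were shallower than the other 6 (at least 12286211). Levels are given in CPM, counts scaled to a common library size by TMM, on which 3 reads, the least taken as detectable here, stand for 0.197 to 0.384 CPM and cover counting error only. Of 13 markers of noradrenergic NB, 12 were detected, with a summed level of 4240 to 7760 CPM, and CHGA was at 0. That sum lay at 7628 to 7760 CPM in control, 5568 to 5892 in E8-cSGcm, 4240 to 4327 in E8-cDRGcm and 4732 to 4909 in E15.5-mSGcm. MYCN made up the larger part of it, with means of 4645, 3402, 2496 and 2638 CPM in the same order. The 12 tested markers had median log2 fold changes against control of -0.48, -0.97 and -0.54 in the 3 conditioned media. Of these markers 1, 1 and 2 lay above 0, with DBH at 0.47 in E15.5-mSGcm. In these bulk samples, fewer cells of a type and less RNA per cell cannot be told apart.

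Levels of the 10 genes in control aggregates spanned a wide range on the per-length scale (RPKM, CPM per kilobase of exon). TNFRSF10B (12.7 RPKM ± 0.268, SD, n = 2), BIRC2 (12.48 ± 0.575) and TNFRSF1A (10.8 ± 0.497) were the most abundant, and TNFRSF10B and BIRC2 did not differ beyond their spread. LTBR followed at 2.98 RPKM ± 0.260. The other 6 lay under 1 RPKM, from BIRC3 (0.507 ± 0.0205), TNFRSF1B (0.459 ± 0.00914), TNFRSF12A (0.407 ± 0.0955), TRAF1 (0.346 ± 0.115) and FAS (0.204 ± 0.0765) to TNFRSF9 (0.0792 ± 0.0242), the lowest. In E15.5-mSGcm, TNFRSF9 reached 9.67 RPKM ± 0.871, close to TNFRSF1A (10.6 ± 0.448), and BIRC3 reached 3.91 RPKM ± 0.236, above LTBR (3.04 ± 0.379).

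**Figure D1:**
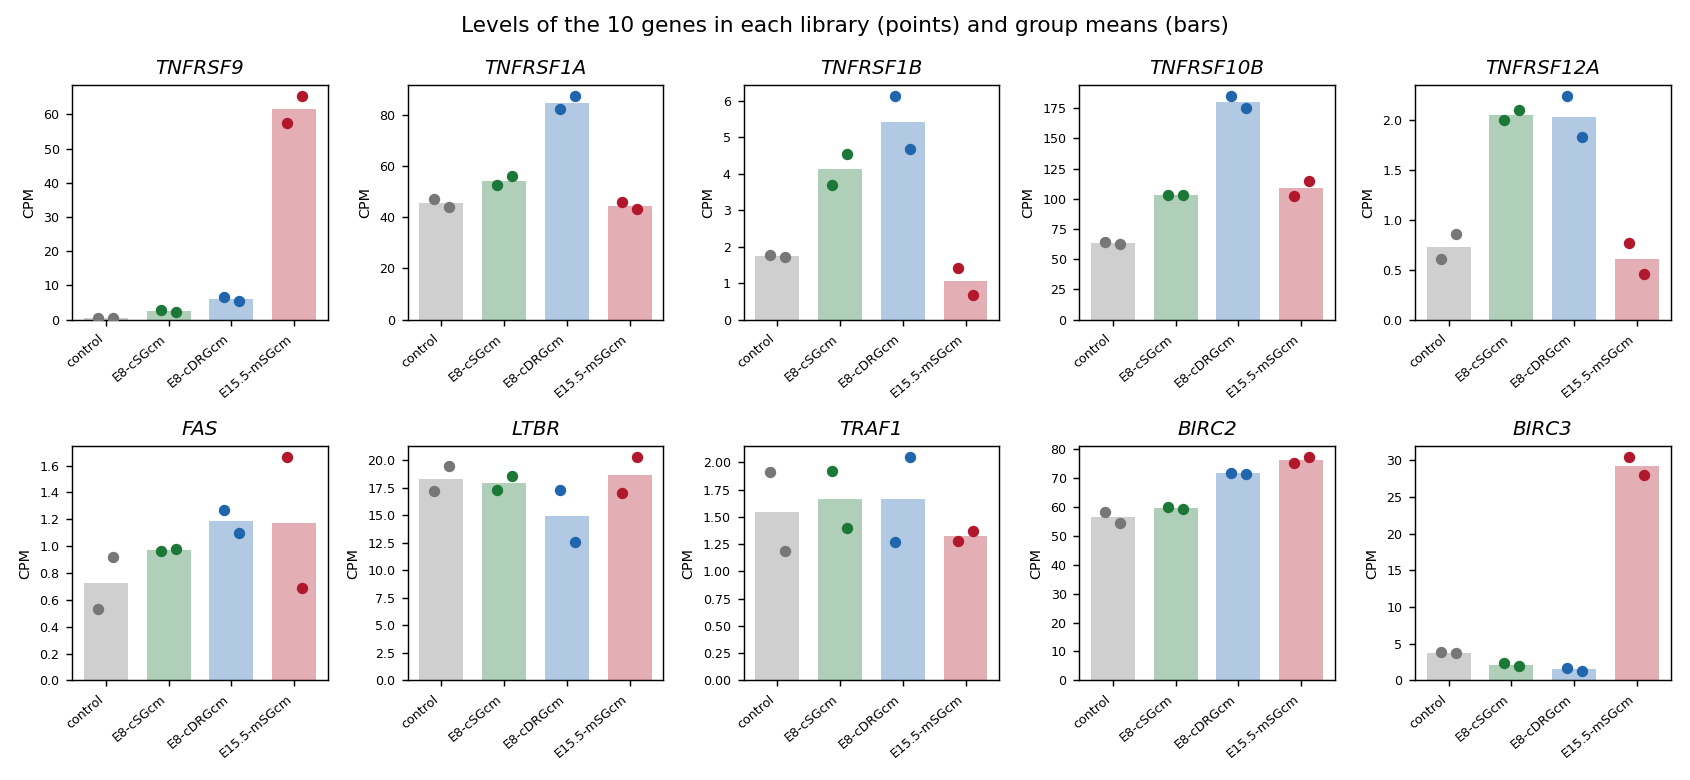
CPM of each of the 10 genes (vertical axes, linear, each from 0) in the 4 groups (horizontal axes), with points for single libraries and bars for the means of 2 libraries. TNFRSF9 reached 57.5 and 65.3 CPM and BIRC3 30.5 and 27.99 CPM in E15.5-mSGcm, and TNFRSF1A, TNFRSF1B and TNFRSF10B had their highest levels in E8-cDRGcm.

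TNFRSF9 encodes 4-1BB, a costimulatory receptor best known on activated T and NK cells, and lies at chr1:7915871-7940839 on the minus strand (GRCh38.p14, ENSG00000049249). Its reads were 8 and 6 in control, 35 and 30 in E8-cSGcm, 90 and 76 in E8-cDRGcm, and 449 and 572 in E15.5-mSGcm. As CPM these are 0.612 and 0.395, 2.81 and 2.101, 6.73 and 5.57, and 57.5 and 65.3. The 4 groups did not overlap and followed 1 order, from control over E8-cSGcm and E8-cDRGcm to E15.5-mSGcm. The log2 fold change against control was 2.27 ± 0.375 (SE) in E8-cSGcm, 3.61 ± 0.301 in E8-cDRGcm and 6.93 ± 0.195 in E15.5-mSGcm, the last being a 121.8-fold higher level. Set against E8-cSGcm, E15.5-mSGcm gave a log2 difference of 4.66 ± 0.149. This difference uses no control level, although the spread is estimated over all 8 libraries. Of 9 markers of T and NK cells, CD3D, CD3E, CD3G, CD2 and NKG7 had no read in any library. The summed level of the list was 0.789 to 1.07 CPM in control and 1.28 to 1.37 CPM in E15.5-mSGcm. Most of the latter came from CD8A, the only tested gene of the list, named after its values were seen. CD8A had 0.470 CPM ± 0.200 in control and 1.205 ± 0.0733 in E15.5-mSGcm (log2 fold change 1.37, edgeR, adjusted p = 0.0526). E15.5-mSGcm exceeded E8-cSGcm and E8-cDRGcm in CD8A by 1.41 and 1.99 (edgeR, adjusted p = 0.0396 and 0.00677). IL2RB of the same list, also named after its values were seen, went the other way. It had 6 and 6 reads in control and 0 and 0 in E15.5-mSGcm, too few to test. The part of T and NK cells in the level of TNFRSF9 was not tested.

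TNFSF9, the ligand of 4-1BB, named here after its values were seen, had at most 4 reads in any library. By a Pearson correlation of log2 CPM over the 8 libraries, the genes most like TNFRSF9 among 14601 candidates were TIFA (r = 0.992), PLXDC2 (r = 0.990), SIAE (r = 0.986), HPS4 (r = 0.985) and SCARB2 (r = 0.984). The 8 points share libraries and depth, and fall into 4 pairs. These genes had a much narrower range than TNFRSF9. TIFA, an adaptor that binds TRAF proteins, went from 20.9 CPM ± 0.128 in control to 39.99 CPM ± 0.333 in E15.5-mSGcm. By Spearman's rho, 8 other genes tied at 1, and 0 of the 5 named here were among them.

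TNFRSF1A and TNFRSF1B encode TNFR1 and TNFR2, the receptors of TNF itself. TNFRSF1A (chr12:6328771-6342076, minus strand, ENSG00000067182) had 46.95 and 43.99 CPM in control, 52.4 and 56.1 in E8-cSGcm, 82.1 and 87.2 in E8-cDRGcm, and 45.7 and 43.1 in E15.5-mSGcm. Only the E8-cDRGcm libraries stood far from control, by a log2 fold change of 0.90 ± 0.0690, and control and E15.5-mSGcm overlapped. The value was 0.26 ± 0.0724 in E8-cSGcm and -0.03 ± 0.0803 in E15.5-mSGcm. TNFRSF1B (chr1:12166991-12209220, plus strand, ENSG00000028137) was a low gene, with 23 and 26 reads in control, 46 and 65 in E8-cSGcm, 82 and 64 in E8-cDRGcm, and 11 and 6 in E15.5-mSGcm. Its CPM were 1.76 and 1.71, 3.69 and 4.55, 6.13 and 4.69, and 1.41 and 0.685, so that both chick media lay above control and the mouse medium below it, without overlap. The log2 fold changes were 1.25 ± 0.270, 1.64 ± 0.258 and -0.75 ± 0.413, the last of which did not meet the call rule. Between E15.5-mSGcm and E8-cDRGcm the log2 difference was -2.38 ± 0.335, and -2.97 without E15.5-mSGcm replicate 1.

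TNFRSF10B encodes TRAIL-R2 (DR5), a death receptor, and FAS encodes CD95, the receptor of FAS ligand. TNFRSF10B (minus strand, ENSG00000120889) had the highest mean of the 10 in all 4 groups on the per-length scale, without differing from BIRC2 beyond the spread in control. Its CPM was 64.3 and 62.4 in control, 102.8 and 103.6 in E8-cSGcm, 185.1 and 175.4 in E8-cDRGcm, and 102.5 and 115.0 in E15.5-mSGcm. It was above control in all 6 libraries of conditioned medium, by a log2 fold change of 0.70 ± 0.0621 in E8-cSGcm, 1.51 ± 0.0598 in E8-cDRGcm and 0.78 ± 0.0649 in E15.5-mSGcm. E8-cSGcm and E15.5-mSGcm overlapped. Over 377 exonic bases TNFRSF10B shares its position with RHOBTB2 on the opposite strand, which had up to 1057 reads in a library, and the strand setting of the counting is not given in the sources used here. FAS (chr10:88964050-89017059, plus strand, ENSG00000026103) had between 6 and 17 reads in every library, 0.535 to 1.66 CPM. Its log2 fold changes of 0.39 ± 0.478, 0.67 ± 0.459 and 0.63 ± 0.515 were within 1.5 standard errors of 0, so a difference was not detectable at this depth. FAS shares 380 exonic bases with ACTA2 on the opposite strand.

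TNFRSF12A and LTBR encode FN14, the receptor of TWEAK, and the lymphotoxin beta receptor, both known to feed the non-canonical NF-kB pathway. TNFRSF12A (chr16:3020368-3022383, plus strand, ENSG00000006327) had few reads, 8 and 13 in control, 25 and 30 in E8-cSGcm, 30 and 25 in E8-cDRGcm, and 6 and 4 in E15.5-mSGcm. Both chick media lay above control without overlap, by log2 fold changes of 1.46 ± 0.388 and 1.45 ± 0.388, and E15.5-mSGcm overlapped control, at -0.29 ± 0.564. The 2 chick media differed by -0.01 ± 0.322 on the log2 scale. LTBR (chr12:6375160-6391566, plus strand, ENSG00000111321) had 12.6 to 20.3 CPM over the 8 libraries, each medium overlapping control. Its log2 fold changes were -0.03 ± 0.121, -0.30 ± 0.125 and 0.03 ± 0.132.

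The adaptor gene TRAF1 (chr9:120902393-120929171, minus strand, ENSG00000056558), known as a target of NF-kB, had 10 to 28 reads per library, 1.18 to 2.05 CPM. All 3 media overlapped control, with log2 fold changes of 0.11 ± 0.359, 0.12 ± 0.357 and -0.20 ± 0.421. These errors leave room for moderate differences that the depth cannot show.

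The 2 cellular IAP genes are neighbours on chromosome 11 (BIRC3, chr11:102317484-102339403, ENSG00000023445, and BIRC2, chr11:102347214-102378670, ENSG00000110330, both plus strand), and differed in level and pattern. BIRC3 had 51 and 56 reads in control, 29 and 28 in E8-cSGcm, 23 and 17 in E8-cDRGcm, and 238 and 245 in E15.5-mSGcm. Its CPM were 3.90 and 3.68, 2.33 and 1.96, 1.72 and 1.25, and 30.5 and 27.99. BIRC3 was thus lower than control in both chick media and higher in the mouse medium, and no 2 groups overlapped. The log2 fold changes against control were -0.82 ± 0.241, -1.35 ± 0.261 and 2.94 ± 0.159. Without E8-cSGcm replicate 2 the value in E8-cSGcm was -0.70 and no longer met the call rule. Between the sympathetic media of mouse and chick, BIRC3 differed by 3.77 ± 0.179 on the log2 scale, and between E15.5-mSGcm and E8-cDRGcm by 4.29 ± 0.191.

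BIRC2 stayed within a narrow band at a higher level, with 58.2 and 54.5 CPM in control, 60.1 and 59.2 in E8-cSGcm, 71.7 and 71.5 in E8-cDRGcm, and 75.2 and 77.3 in E15.5-mSGcm. The conditioned libraries all lay above control, by log2 fold changes of 0.08 ± 0.0668, 0.35 ± 0.0654 and 0.44 ± 0.0690, under the fold that the call rule asks for. Over exon length, BIRC2 exceeded BIRC3 in every group, with 12.48 against 0.507 RPKM in control and 16.9 against 3.91 RPKM in E15.5-mSGcm.

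**Figure D2:**
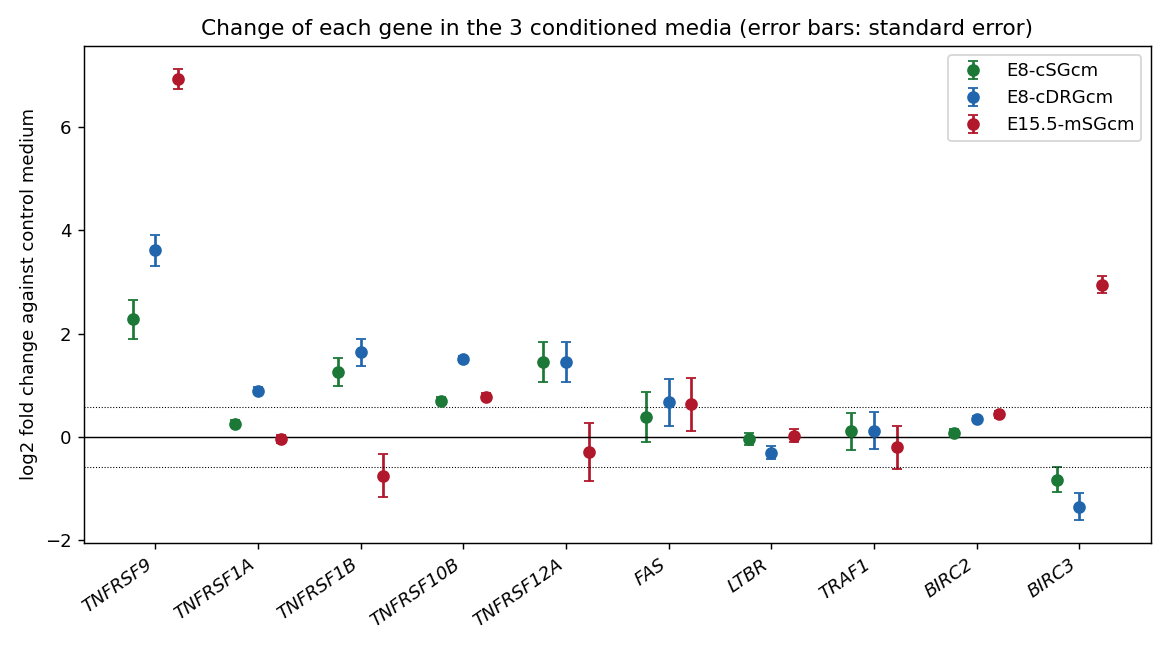
Log2 fold change against control medium (vertical axis) of the 10 genes (horizontal axis) in each conditioned medium, with standard errors as bars and dotted lines at a 1.5-fold change in either direction. TNFRSF9 lay above 0 in all 3 media (2.27, 3.61 and 6.93), and BIRC3 below 0 in the chick media (-0.82 and -1.35) and above it in E15.5-mSGcm (2.94).

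The call rule combined edgeR's quasi-likelihood test (adjusted p under 0.05) with a minimum 1.5-fold change. In E8-cSGcm, 4 of the 10 genes met this rule upward (TNFRSF9, TNFRSF1B, TNFRSF10B and TNFRSF12A), where 4.73% of all tested genes did, and 1 downward (BIRC3), against 3.86%. In E8-cDRGcm, 5 met it upward, the same 4 and TNFRSF1A, against 9.81%, and BIRC3 downward, against 10.9%. In E15.5-mSGcm, 3 met it upward (TNFRSF9, TNFRSF10B and BIRC3), against 6.65%, and 0 downward, against 7.27%. The median log2 fold change of the 10 genes was 0.32, 0.79 and 0.23 in the 3 media, and that of all tested genes was 0.01, 0.01 and -0.02. Since the genes were chosen with these contrasts known, nothing is read from the counts or medians, and the 3 contrasts share their control libraries.

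The contrasts between media use no control level, while their spread comes from the model of all 8 libraries. E8-cDRGcm and E8-cSGcm differed by the same rule for 3 of the 10 genes (TNFRSF9, TNFRSF1A and TNFRSF10B, all higher in E8-cDRGcm), where 7.49% of tested genes did. E15.5-mSGcm and E8-cSGcm differed for 4 (TNFRSF9 and BIRC3 higher, TNFRSF1B and TNFRSF12A lower in the mouse medium), against 22.3%. Without E15.5-mSGcm replicate 2, TNFRSF12A no longer met the rule in this contrast, at -1.42 in place of -1.75. E15.5-mSGcm and E8-cDRGcm differed for 6 (TNFRSF9 and BIRC3 higher, TNFRSF1A, TNFRSF1B, TNFRSF10B and TNFRSF12A lower), against 26.2%. Across the 8 libraries, log2 CPM of TNFRSF1B and TNFRSF12A went together with r = 0.962, and TNFRSF9 went with BIRC2 (r = 0.929) more closely than with BIRC3 (r = 0.700). The 8 points share libraries and depth and fall into 4 pairs, so these values only describe the shape of the levels.

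The gene lists here and below were chosen with earlier results of these data known, and named genes mostly by their fold changes in these libraries. Their adjusted p-values describe the fit and are no independent test. Most ligand genes and many other receptor genes of the family had few or no reads. Of 18 TNF family ligands, 16 had too few reads to test, and 10 of them, TNF, LTA, LTB, FASLG, TNFSF10, CD40LG and CD70 included, had no read in any library. TNFSF4 (OX40 ligand) and EDA were tested. TNFSF4 went from 0.645 CPM ± 0.169 in control to 1.75 ± 0.115 in E15.5-mSGcm, a log2 fold change of 1.44 (edgeR, adjusted p = 0.0153). This call was lost without control replicate 2 (adjusted p = 0.123), without E15.5-mSGcm replicate 1 (0.0509) or 2 (0.108), and by DESeq2 (0.0833). In the chick media edgeR and DESeq2 called 0 ligands among the 2 tested, with 0 in E8-cSGcm and 1 in E8-cDRGcm at an unadjusted p under 0.05. With a filter of only 1 count in total, 1 ligand was called downward in E15.5-mSGcm and 1 more upward in E8-cDRGcm. The latter was TNFSF13B (BAFF), named after its values were seen. It had no read in control and 7 and 5 reads in E8-cDRGcm, at least 2.08-fold higher against a floor of 3 reads per library.

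Of 22 other receptor genes, 13 had too few reads and 5 of these had none, which left 9 tested. NGFR, the p75 neurotrophin receptor, was called in opposite directions. It rose from 18.4 CPM ± 0.0442 in control to 30.9 ± 0.737 in E8-cSGcm and 54.1 ± 0.513 in E8-cDRGcm, and fell to 6.17 ± 1.29 in E15.5-mSGcm, with log2 fold changes of 0.75, 1.56 and -1.56 (edgeR, adjusted p = 7.68e-08, 2.11e-17 and 3.96e-11). TNFRSF10A, which encodes TRAIL-R1, rose by 0.69 in E8-cDRGcm and 0.92 in E15.5-mSGcm on the log2 scale (edgeR, adjusted p = 2.81e-08 and 2.5e-10). In E15.5-mSGcm, TNFRSF10D, a TRAIL decoy receptor, rose by 1.31 (edgeR, adjusted p = 1.96e-05). EDA2R had an adjusted p of 0.0482 there (edgeR), which went above the threshold by DESeq2 (0.201) and without control replicate 1 (0.0671) or 2 (0.234), E8-cDRGcm replicate 2 (0.0538), or E15.5-mSGcm replicate 1 (0.302) or 2 (0.066). CD40 in E8-cSGcm (log2 fold change 0.65) and TNFRSF21 in E15.5-mSGcm (-0.59), both named after their values were seen, complete the calls. These were 2 upward in E8-cSGcm, 2 upward in E8-cDRGcm, and 3 upward and 2 downward in E15.5-mSGcm. Over all tested genes, 4.73%, 9.81% and 6.65% were called upward and 3.86%, 10.9% and 7.27% downward in the 3 media. The 2 calls in E8-cSGcm became 1 by DESeq2 and without control replicate 2 or E8-cSGcm replicate 1, and the 2 downward calls in E15.5-mSGcm became 1 by DESeq2 and without control replicate 1, E8-cDRGcm replicate 1 or E15.5-mSGcm replicate 2.

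Below the receptors, genes of the pathway were counted by role. Of 16 tested adaptor and effector genes (TRAFs, TRADD, FADD, RIPK1, caspases and MLKL), edgeR called 1 in E8-cSGcm, 3 in E8-cDRGcm and 0 in E15.5-mSGcm, where 10 had an unadjusted p under 0.05 and DESeq2 called 0. Over all tested genes, the shares were 4.73% upward and 3.86% downward in E8-cSGcm, and 9.81% and 10.9% in E8-cDRGcm. In E15.5-mSGcm they were 6.65% and 7.27%. The counts in the chick media were thus near those of any genes. MLKL, the effector of necroptosis, fell from 7.28 CPM ± 0.126 to 3.03 ± 0.0601 in E8-cDRGcm, by 1.26 on the log2 scale (edgeR, adjusted p = 1.58e-06). RIPK1, a kinase bound to TNFR1, was at -0.64 and -0.59 in the chick media (edgeR, adjusted p = 0.0078 and 0.00769). Both RIPK1 calls were lost by DESeq2 (0.0604 and 0.0618) and without control replicate 1 (0.109 and 0.105). That in E8-cSGcm was also lost without E8-cSGcm replicate 2 (0.0889) and that in E8-cDRGcm without E8-cDRGcm replicate 1 (0.135). CASP10 in E8-cDRGcm, at 0.95 (edgeR, adjusted p = 0.0102), was lost by DESeq2 (0.0935), without control replicate 2 (0.0637) and without E8-cDRGcm replicate 1 (0.0946).

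Of 15 tested genes for ubiquitin and kinase steps, RBCK1 (HOIL-1, a subunit of the linear ubiquitin ligase) rose in both chick media, from 36.6 CPM ± 1.29 to 61.7 ± 1.92 and 98.6 ± 1.81, by 0.76 and 1.43 on the log2 scale (edgeR, adjusted p = 9.98e-11 and 1.32e-19). In E15.5-mSGcm the calls were 2 deubiquitinating enzymes that restrain NF-kB. CYLD rose from 44.5 CPM ± 0.610 to 87.4 ± 4.62 (edgeR, adjusted p = 2.06e-13). TNFAIP3 (A20) had 1 read over both control libraries and 40 over both E15.5-mSGcm libraries, a ratio of 68.3 with a 95% exact counting interval of 11.6 to 2765. The control read was in replicate 1, and the others were 11 and 29. TNFAIP3 passed the read filter only through E15.5-mSGcm, so its upward call there follows largely from that filter. With at least 10 counts in every library, 1 gene was called there in place of 2. The upward calls of this list were 1, 1 and 2 in the 3 media, where 4.73%, 9.81% and 6.65% of all tested genes were called upward. Without control replicate 2 or E8-cDRGcm replicate 1, 2 genes of this list were called upward in E8-cDRGcm in place of 1. Of 5 tested genes among the other IAPs and their antagonists, edgeR and DESeq2 called 0 in each medium, with 3, 3 and 2 at an unadjusted p under 0.05. Without E15.5-mSGcm replicate 1, 1 was called downward there. XIAP, named after its values were seen, stood at 62.1 CPM ± 1.25 in control and 68.3 ± 0.572 in E15.5-mSGcm. It was lower in the chick media, at 48.8 ± 0.301 and 52.3 ± 3.80, by -0.35 and -0.25 on the log2 scale. BIRC5, also named after its values were seen, was at -0.55 in E15.5-mSGcm, short of the fold of the rule.

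**Figure D3:**
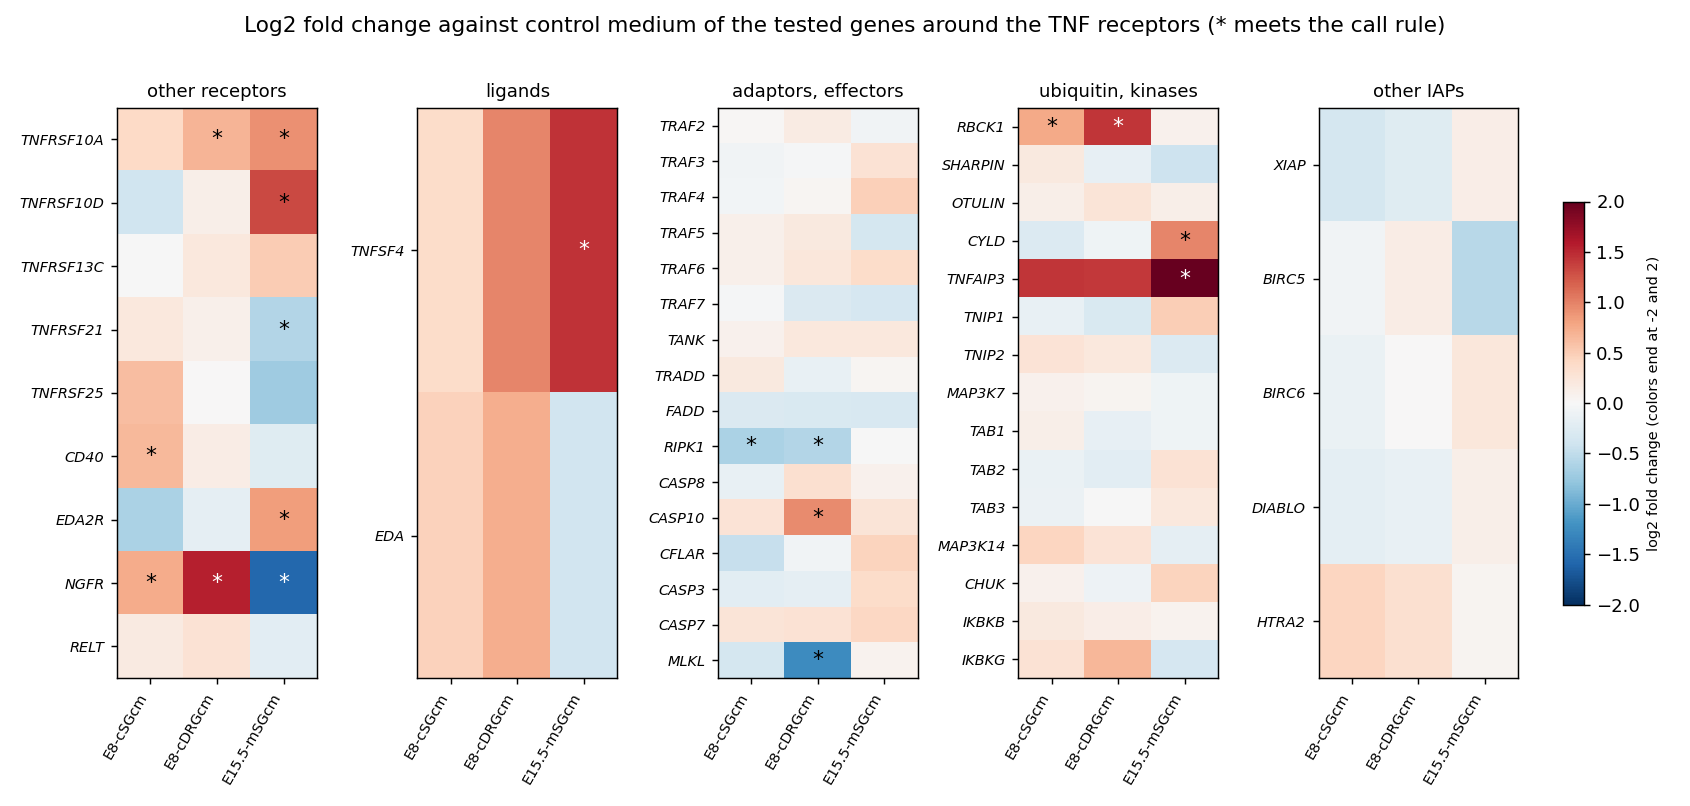
Log2 fold change against control (color, red higher and blue lower, ending at -2 and 2) of the tested genes of 5 pathway lists (rows) in the 3 conditioned media (columns), with an asterisk where the call rule was met. NGFR changed upward in the chick media (0.75 and 1.56) and downward in E15.5-mSGcm (-1.56), and RBCK1 upward in the chick media (0.76 and 1.43).

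Genes of 3 programs with known links to the 10 genes were counted in the same fit, with lists also chosen with earlier results known. Of 16 matched NF-kB subunits, inhibitors and classical targets, 5 had too few reads, IL6 and BCL2A1 included, and 11 were tested. Of the 11, 1 rose and 1 fell in E8-cSGcm, 4 rose in E8-cDRGcm, and 10 rose in E15.5-mSGcm. The list medians were 0.03, 0.38 and 1.63 on the log2 scale. ICAM1 and CCL2 passed the read filter only through E15.5-mSGcm, so their upward calls there follow from that filter. The last count and median include both. Over all tested genes, 4.73%, 9.81% and 6.65% were called upward and 3.86%, 10.9% and 7.27% downward in the 3 media. NFKBIA, the inhibitor IkB alpha, was at 32.1 CPM ± 3.68 in control, 24.3 ± 0.154 and 34.1 ± 1.54 in the chick media, and 225.3 ± 5.42 in E15.5-mSGcm (edgeR, adjusted p = 1.78e-27 for the last). ICAM1, an adhesion molecule, had no read in control and 251 and 279 reads in E15.5-mSGcm, at least 150.1-fold higher against a floor of 3 reads per library. The chemokine gene CCL2 had 2 reads over both control libraries and 442 over both E15.5-mSGcm libraries, a ratio of 377.5 with a counting interval of 103.9 to 3127, and both control reads were in replicate 1. NFKB2, the subunit p100 of the non-canonical pathway, rose in all 3 media, by 0.91, 1.69 and 2.08 (edgeR, adjusted p = 1.52e-09, 5.05e-18 and 3.72e-20). NFKB1 in E8-cSGcm, at -0.62, was under the fold of the rule without control replicate 2 (-0.58) or E8-cSGcm replicate 1 (-0.51).

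Of 11 genes of the integrated stress response, a program in which ATF4 and CHOP are known to raise TNFRSF10B, 5 rose and 2 fell in E8-cSGcm, 6 rose in E8-cDRGcm, and 4 fell in E15.5-mSGcm. Without control replicate 1 or E8-cSGcm replicate 1 the count of those that fell in E8-cSGcm was 1, and without control replicate 2, 1 fell in E8-cDRGcm. TRIB3 went from 29.7 CPM ± 1.26 to 63.8 ± 10.5 and 166.8 ± 12.1 in the chick media and stood at 20.2 ± 2.12 in E15.5-mSGcm, and ATF5 went from 31.2 ± 0.567 to 97.2 ± 8.04 and 149.1 ± 1.74 (edgeR, adjusted p = 9.73e-09 and 5.76e-16 for TRIB3, 7.97e-20 and 3.11e-25 for ATF5). TNFRSF10B was at 103.2 and 180.2 CPM in the chick media and at 108.8 CPM in E15.5-mSGcm, where 0 genes of this list were called upward. ATF4 RNA was not called in any medium, with log2 fold changes of -0.06, 0.22 and -0.22. DDIT3, which encodes CHOP and is named after its values were seen, was at 1.01, 1.74 and -0.17. It was called upward in both chick media. The part of this program in the level of TNFRSF10B was not tested. Of 15 p53 targets, a group to which FAS and TNFRSF10B are also assigned, 1 fell in E8-cSGcm, 2 rose and 1 fell in E8-cDRGcm, and 4 rose in E15.5-mSGcm. Without control replicate 1, 1 rose in E8-cSGcm, 2 fell in E8-cDRGcm and 1 fell in E15.5-mSGcm, and 2 fell in E8-cDRGcm also without E8-cDRGcm replicate 2. Over all tested genes, the shares were 4.73% upward and 3.86% downward in E8-cSGcm, and 9.81% and 10.9% in E8-cDRGcm. In E15.5-mSGcm they were 6.65% and 7.27%. The counts of p53 targets in the chick media were near these shares. CDKN1A, the cell cycle inhibitor p21, rose from 1.77 CPM ± 0.638 to 4.22 ± 0.167 in E8-cDRGcm and 5.79 ± 0.215 in E15.5-mSGcm (edgeR, adjusted p = 0.000103 and 2.46e-06).

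Markers of other cells were counted beside these results. Macrophage markers summed to 0.401 to 2.56 CPM, with 3 of 10 at 0 and 1.142 to 2.56 CPM in E15.5-mSGcm against 0.917 to 0.986 in control. Glial markers summed to 49.6 to 50.0 CPM in control and 18.2 to 19.2 in E15.5-mSGcm, with SOX10 and FABP7 at 0. Most of that sum came from 1 gene, while ERBB3 of the same list rose from 0.755 CPM ± 0.230 in control to 2.55 ± 0.852 in E8-cDRGcm and 2.45 ± 0.570 in E15.5-mSGcm (edgeR, adjusted p = 0.000165 and 0.00108). Endothelial markers summed to 0.571 to 3.08 CPM over all libraries, with CDH5 and CLDN5 at 0. Their only tested gene, EGFL7, was at 0.826 CPM ± 0.238 in control and 1.96 ± 0.500 in E8-cSGcm (edgeR, adjusted p = 0.0147). This call was lost without control replicate 2 or E8-cSGcm replicate 2. In E8-cDRGcm and E15.5-mSGcm, EGFL7 was at 1.15 ± 0.279 and 0.249 ± 0.191 and was not called. KDR of the same list, named after its values were seen, had 14 and 9 reads in control and 7 and 2 in E8-cSGcm. In E8-cDRGcm and in E15.5-mSGcm it had 1 and 0. Of 7 tested fibroblast markers, COL1A2, DCN, LUM and PDGFRA rose and COL1A1 fell in E15.5-mSGcm, and FAP was at 0. Over all tested genes, 6.65% rose and 7.27% fell there by the same rule. The sum was 476.8 to 486.9 CPM there against 416.6 to 428.4 in control. PDGFRB, which was not called, made up the larger part of it, with 256.4 CPM ± 3.68 in control and 313.8 ± 16.3 in E15.5-mSGcm. COL1A1 went from 106.0 ± 9.72 to 30.2 ± 2.44. The part of these other cells in the levels of TNFRSF9 and BIRC3 was not tested.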

How the data were processed

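RNA was sequenced from 8 libraries of IGR-N91 aggregates, 2 per group, grouped by their labels. The authors deposited raw counts per Ensembl gene, neither normalized nor filtered. The submitters' processing notes name bcl2fastq 2.17.1.14, cutadapt 1.9.1, TopHat2 2.1.0, HTSeq 0.11.3 and hg38, and the study's methods name hg19. The strand setting of the counting is not given in the sources used here.

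Counts were scaled by TMM, filtered by filterByExpr and tested with edgeR 4.0.16 (R 4.3.3; robust quasi-likelihood fit, 1 model of 8 libraries, Benjamini-Hochberg over 16680 genes). Standard errors are the log2 fold change over the root of its F statistic. Exon lengths come from GENCODE release 44 on GRCh37, gene positions and promoters from RefSeq (GRCh38.p14). The kB consensus was searched on both strands.

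The 10 genes and all gene lists were chosen with earlier results of these data known. From each list, named genes are up to 4 called genes with the largest log2 fold change, in both libraries beyond both control libraries and at 1 CPM or more in a group, those called in opposite directions, and the 5 most correlated with TNFRSF9. PECAM1 and SOD2 had no matched row, and 1 glial marker is not reported here. Alternatives were DESeq2 1.42.0, RLE factors, 2 other count filters, only the libraries compared, adjusted p alone, a replicate block and leaving out each library. Steps were tested on simulated data.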

Additional observations from a re-analysis of the deposited data

Results flagged for a closer look

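Changes against control in opposite directions between media drew attention to 5 genes. BIRC3 was higher in E15.5-mSGcm than in E8-cSGcm by 3.77 and than in E8-cDRGcm by 4.29 on the log2 scale, being below control in both chick media and above it in the mouse medium in every library. This difference was not tested, since BIRC3 was selected with these results known.

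The other 4 were picked for opposite calls in these same libraries, from lists chosen with earlier results known. Their differences between media all met the call rule of the edgeR fit over all genes, but restate that choice, so they are given as a description without p-values. NGFR was lower in E15.5-mSGcm than in E8-cSGcm by a log2 difference of -2.31 and than in E8-cDRGcm by -3.12. NFKB1, which encodes the NF-kB subunit p105, differed between E15.5-mSGcm and E8-cSGcm by 1.76. TP53INP1, a p53 target, was higher in E15.5-mSGcm than in E8-cSGcm by 1.48 and than in E8-cDRGcm by 1.95. ASNS, asparagine synthetase, was lower in E15.5-mSGcm, by -2.25 against E8-cSGcm and -3.52 against E8-cDRGcm. The fall of ASNS against control in E15.5-mSGcm (log2 fold change -0.70, adjusted p = 0.037) was lost by DESeq2 (0.0932), with only the libraries compared (0.0522), and without control replicate 2 (0.314), E15.5-mSGcm replicate 1 (0.244) or replicate 2 (0.057).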

How the results depend on the processing

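The 10 genes gave 189 called values against control over the alternatives, of which 187 were called again in the same direction, 1 had no adjusted p (TNFRSF12A in E8-cSGcm by DESeq2), 1 was lost and 0 changed direction. With a minimum of 10 counts in every library, 1 of them was called upward in E8-cSGcm and 2 in E8-cDRGcm, because fewer were tested. By adjusted p alone, 2 were called downward in E8-cDRGcm. Leaving out each library in turn gave 0 to 1 called downward in E8-cSGcm, 0 without E8-cSGcm replicate 2. Ranking genes by Spearman's rho kept 0 of the 5 most like TNFRSF9.

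Over all genes, DESeq2 called 504 upward in E8-cSGcm, and between E8-cDRGcm and E8-cSGcm 234 upward and 537 downward, where edgeR called 789, 437 and 812. The cause was not tested. By adjusted p alone, without the fold criterion, the counts upward and downward were 2679 and 2534 in E8-cSGcm, 4143 and 4118 in E8-cDRGcm, and 2975 and 3330 in E15.5-mSGcm. Between media they were 2456 and 2581 for E8-cDRGcm against E8-cSGcm, 3979 and 4325 for E15.5-mSGcm against E8-cSGcm, and 4297 and 4470 for E15.5-mSGcm against E8-cDRGcm.

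Deviations of same-numbered libraries from their group means correlated over genes with r of -0.0437 to 0.0420. With 2 libraries per group and counting error in each gene, these values cannot settle whether same-numbered libraries shared a culture day or batch of medium. With the replicate number as a block, 771 genes were called upward and 643 downward in E8-cSGcm, 1626 and 1818 in E8-cDRGcm, and 1085 and 1203 in E15.5-mSGcm, and of the 10 genes 4 and 1, 5 and 1, and 3 and 0. EDA2R in E15.5-mSGcm had an adjusted p of 0.0548 with the block. Named genes of the lists gave 556 called values over the alternatives, of which 526 were kept, 30 lost and 0 reversed.

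With 2 libraries per group, an exact permutation test of a single gene cannot go below p = 0.333, so calls rest on the spread shared across genes by the model. TNFRSF9, TNFRSF1B, TNFRSF12A, FAS and TRAF1 had under 30 reads in every control library, and FAS and TRAF1 were limited by counting error. The chi-square per gene between duplicates, near 1 for pure counting error, was 1.87 to 3.95.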
